A study of Mus musculus with 16 samples.

Results

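The amphiregulin and EGF receptor family was followed in whole mouse liver through 10 named genes of the 25719 genes in the deposited table. They comprise the ligands Areg, Ereg, Hbegf, Tgfa, Btc and Egf, the receptors Egfr and Erbb3, and the feedback genes Errfi1 and Spry4. All 10 were found by gene name. The genes were chosen by name with earlier values of these livers known: the low Areg level of Klrk1-/- mice on SSD, set against WT mice on SSD, was in view when the set was drawn up. That contrast is therefore described for these genes without a test, and so is the diet by genotype interaction that contains it. The diet comparisons share their SSD-fed mice with that contrast, so their tests of these genes are not independent of the choice.

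Livers came from 16 male mice that entered the feeding experiments of the study at 8 to 12 weeks of age, 1 library per mouse. WT mice were C57BL6J, 4 on a normal chow diet (NCD) and 5 on the steatosis-steatohepatitis diet (SSD), a diet rich in fat, fructose and cholesterol, for 3 weeks. Klrk1-/- mice, deficient in the activating immune receptor NKG2D, were 4 on NCD and 3 on SSD over the same period. No other allele or agent is named for any group. Whether the WT and Klrk1-/- mice were littermates is not given in the sources used here, so genotype and breeding colony cannot be told apart.

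The ErbB receptors are receptor tyrosine kinases that pair on binding a ligand and signal through the RAS to ERK and the PI3K cascades. The ligands are made as membrane proteins, and sheddases release them. In liver the pathway is known for its part in hepatocyte growth and regeneration after injury, with EGFR and ERBB3 as the main receptors of the hepatocyte. ERRFI1 binds and blocks the EGFR kinase, and SPRY4 restrains the ERK cascade. Both belong to the feedback brakes of the pathway.

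Areg, Ereg and Btc lie next to each other on chromosome 5 of GRCm39, together with Epgn, the gene of epigen. The span of 375.6 kb from 91175323 to 91550883 holds 4 protein-coding genes in the GENCODE annotation, and each encodes an ErbB ligand. The 250 bases upstream of the annotated start of these 3 members, and of Errfi1 on chromosome 4, are shown because their levels moved in different ways across the same mice. Capitals mark matches to the cyclic AMP response element TGACGTCA, to the TATA box TATAAA and to the GC box GGGCGG, on either strand. Each sequence is written 5′ to 3′ on the strand of the gene.
Areg, chr5:91287201-91287450, plus strand: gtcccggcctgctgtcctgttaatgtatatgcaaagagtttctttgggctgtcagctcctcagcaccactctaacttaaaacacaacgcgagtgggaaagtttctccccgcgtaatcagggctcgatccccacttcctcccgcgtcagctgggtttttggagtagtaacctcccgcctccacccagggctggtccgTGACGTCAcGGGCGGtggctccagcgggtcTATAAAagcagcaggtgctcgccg
Ereg, chr5:91221907-91222156, plus strand: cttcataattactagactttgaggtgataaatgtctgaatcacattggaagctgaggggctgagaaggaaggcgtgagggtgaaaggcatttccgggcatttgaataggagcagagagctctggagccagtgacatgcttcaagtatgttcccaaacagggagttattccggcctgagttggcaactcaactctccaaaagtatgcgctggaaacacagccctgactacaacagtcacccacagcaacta
Btc, chr5:91550884-91551133, minus strand: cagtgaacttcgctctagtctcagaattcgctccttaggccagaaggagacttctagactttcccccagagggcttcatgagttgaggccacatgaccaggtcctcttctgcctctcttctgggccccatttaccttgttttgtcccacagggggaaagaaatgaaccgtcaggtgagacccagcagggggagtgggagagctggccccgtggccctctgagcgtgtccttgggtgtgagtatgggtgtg
Errfi1, chr4:150939272-150939521, plus strand: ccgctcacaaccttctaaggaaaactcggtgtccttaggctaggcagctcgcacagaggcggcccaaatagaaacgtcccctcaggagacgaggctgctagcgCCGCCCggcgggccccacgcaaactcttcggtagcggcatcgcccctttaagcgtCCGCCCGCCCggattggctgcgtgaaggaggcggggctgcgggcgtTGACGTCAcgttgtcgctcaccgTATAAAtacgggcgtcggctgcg

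The Areg window held 1 cyclic AMP response element, beginning 54 bases before the start, followed by a GC box 45 bases and a TATA box 24 bases before it. In Errfi1 the same element began 46 bases and the TATA box 23 bases before the start, with 3 GC boxes at 147, 92 and 88 bases, the last 2 of which overlap. Of 21770 promoters of the same length, 1.69% held the response element, 11.9% the TATA box, 36.3% the GC box, and 0.161% (35 promoters) the response element together with the TATA box. The Ereg and Btc windows matched none of the motifs searched, which also included AP-1 (TGACTCA, in 4.02% of promoters) and STAT (TTCCNGGAA, in 0.942%). AP-1 was found 117 bases before the start of Tgfa and 78 bases before that of Erbb3. The Errfi1 window lies inside the table's interval of the gene, which begins at position 150938376, and overlaps the opposite-strand RNA gene 1700045H11Rik. These matches describe letters and not binding.

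Libraries held between 19892025 and 28936707 reads on genes. Klrk1 itself measured 20.1 to 71.1 normalized counts in WT mice and 0.966 to 8.71 in Klrk1-/- mice, without overlap. The hepatocyte markers Alb, Apoa1, Ttr, Serpina1a and Cyp3a11 were high in every mouse, whereas all 3 kidney markers lay at the floor of 3 reads or fewer in each library. In the SSD-fed WT mouse numbered 1, the 5 stellate cell and fibroblast markers summed to 16390, against 1712 to 5203 in the other 4 mice of that group. Diet differences of WT mice are given below with and without this mouse where its absence bears on the call or the size. In whole liver, fewer cells of a type and less RNA per cell cannot be told apart.

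Of the 6 ligands, Areg (amphiregulin; chromosome 5, 91287458 to 91296291) lay at or near 0 in every group but SSD-fed WT mice. Its normalized counts in SSD-fed WT mice were 24.6, 23.7, 27.6, 32.0 and 59.6, from 28 to 73 reads per library. Of the NCD-fed WT mice, the one numbered 2 held 1 read and the other 3 none. The values were 2.30, 0, 0 and 0 in NCD-fed Klrk1-/- mice and 0.966, 0.803 and 0.857 in SSD-fed Klrk1-/- mice. Each of these 11 livers held at most 2 reads of Areg, and the 5 SSD-fed WT livers stood apart from all of them. The mean of SSD-fed WT mice, 33.5 ± 14.96 (SD, n = 5), was at least 9.66-fold above the floor of NCD-fed WT mice and at least 12.8-fold above that of SSD-fed Klrk1-/- mice. Without the mouse at 59.6, the bounds were 7.78-fold and 10.3-fold. Areg reached the minimum mean of 10 normalized counts only through the SSD-fed WT mice, so its diet difference is given as a bound and supports no count.

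Btc (betacellulin; chromosome 5, 91505120 to 91550853) followed a like pattern at a higher level. SSD-fed WT mice measured 130, 66.7, 76.1, 50.6 and 80.8 normalized counts, and NCD-fed WT mice 31.4, 40.3, 20.9 and 45.2. Values in Klrk1-/- mice were 34.5, 31.1, 14.9 and 39.4 on NCD and 32.8, 39.4 and 36.9 on SSD. Every SSD-fed WT liver lay above all 11 others. The diet difference in WT mice was 1.19 on the log2 scale (SE 0.28), a 2.29-fold rise, with an adjusted p of 0.00736 in limma and an exact two-sided permutation p of 0.0159, the smallest that 5 against 4 mice allow. Without the SSD-fed WT mouse numbered 1, the highest of its group, the rise was 1.008 (adjusted p = 0.00875). In Klrk1-/- mice the difference was 0.35 (SE 0.31, 95% interval -0.32 to 1.02, adjusted p = 0.421).

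Ereg (epiregulin) lies between Epgn and Areg and was scarce. It measured 27.2, 19.4, 10.5, 11.5 and 3.27 normalized counts in SSD-fed WT mice, 3.62, 3.02, 9.12 and 3.31 in NCD-fed WT mice, 9.19, 11.2, 3.73 and 2.46 in NCD-fed Klrk1-/- mice, and 7.73, 4.02 and 3.43 in SSD-fed Klrk1-/- mice. The WT groups overlapped, with the SSD-fed mouse that held the most Areg holding the least Ereg. The diet difference in WT mice was 1.27 (SE 0.56), and Ereg too passed the minimum only through SSD-fed mice. Without the SSD-fed mouse numbered 1, 2 or 4 it lay below the minimum. No call of Ereg is read as a result.

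Hbegf (heparin-binding EGF-like growth factor) was called by the main limma test in none of the 3 comparisons tested. Its means were 9.34 ± 5.69 (SD, n = 4) on NCD and 18.6 ± 9.60 (n = 5) on SSD in WT mice, a difference of 0.92 (SE 0.46). Hbegf likewise passed the minimum in WT mice only through the SSD-fed group, so no test of this difference is read. It was 0.68 without the SSD-fed mouse numbered 1, 1.23 with equal library totals and 0.40 with quantile normalization. In Klrk1-/- mice the 3 values on SSD, 29.0, 18.5 and 24.9, all lay above the 4 on NCD, which ran from 10.3 to 15.99. That difference was 0.83 (SE 0.30, limma adjusted p = 0.0554), and the exact permutation p of 0.0571 is the smallest that 3 against 4 mice allow, so the permutation test cannot reach 0.05 here. With equal library totals the difference was 1.07 (adjusted p = 0.0132) and in edgeR 0.88 (adjusted p = 0.0421), and both passed the threshold.

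Tgfa (transforming growth factor alpha) was the most abundant ligand gene per length in every group. It measured 390 ± 38.7 normalized counts (SD, n = 4) on NCD and 456 ± 41.2 (n = 5) on SSD in WT mice, and 282 ± 74.9 (n = 4) and 400 ± 48.0 (n = 3) in Klrk1-/- mice. The diet differences were 0.22 (SE 0.10, limma adjusted p = 0.0988) in WT mice and 0.54 (SE 0.19, adjusted p = 0.0489) in Klrk1-/- mice, the latter a 1.45-fold difference that stayed under the limit of 1.5. Neither was called. The WT value was 0.17 (adjusted p = 0.185) without the SSD-fed mouse numbered 1. The difference in Klrk1-/- mice passed both limits with equal library totals (0.79, adjusted p = 0.00584), with the replicate number as a block (0.67, adjusted p = 0.0203), and without the NCD-fed mouse numbered 1 or 4 or the SSD-fed mouse numbered 2. On NCD the difference between Klrk1-/- and WT mice was -0.50 (SE 0.17, limma adjusted p = 0.0649). It passed both limits with the replicate block (-0.66, adjusted p = 0.0125) and without the Klrk1-/- mouse numbered 4 (-0.64, adjusted p = 0.0299).

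Egf (epidermal growth factor), a gene known for its strong expression in the kidney and salivary gland, was low in these livers. Values on SSD in WT mice ran from 9.77 to 15.2 normalized counts and on NCD from 15.6 to 24.3, without overlap (exact permutation p = 0.0159). The limma estimate was -0.58 (SE 0.27, 95% interval -1.18 to 0.01, adjusted p = 0.114), which was not past the threshold. It was -1.02 (adjusted p = 0.0178), past the threshold, with quantile normalization and -0.26 (adjusted p = 0.443) with equal library totals. In Klrk1-/- mice the values were 11.1 to 18.5 on SSD and 13.5 to 33.6 on NCD, a difference of -0.50 (SE 0.36, adjusted p = 0.315).

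**Figure D1:**
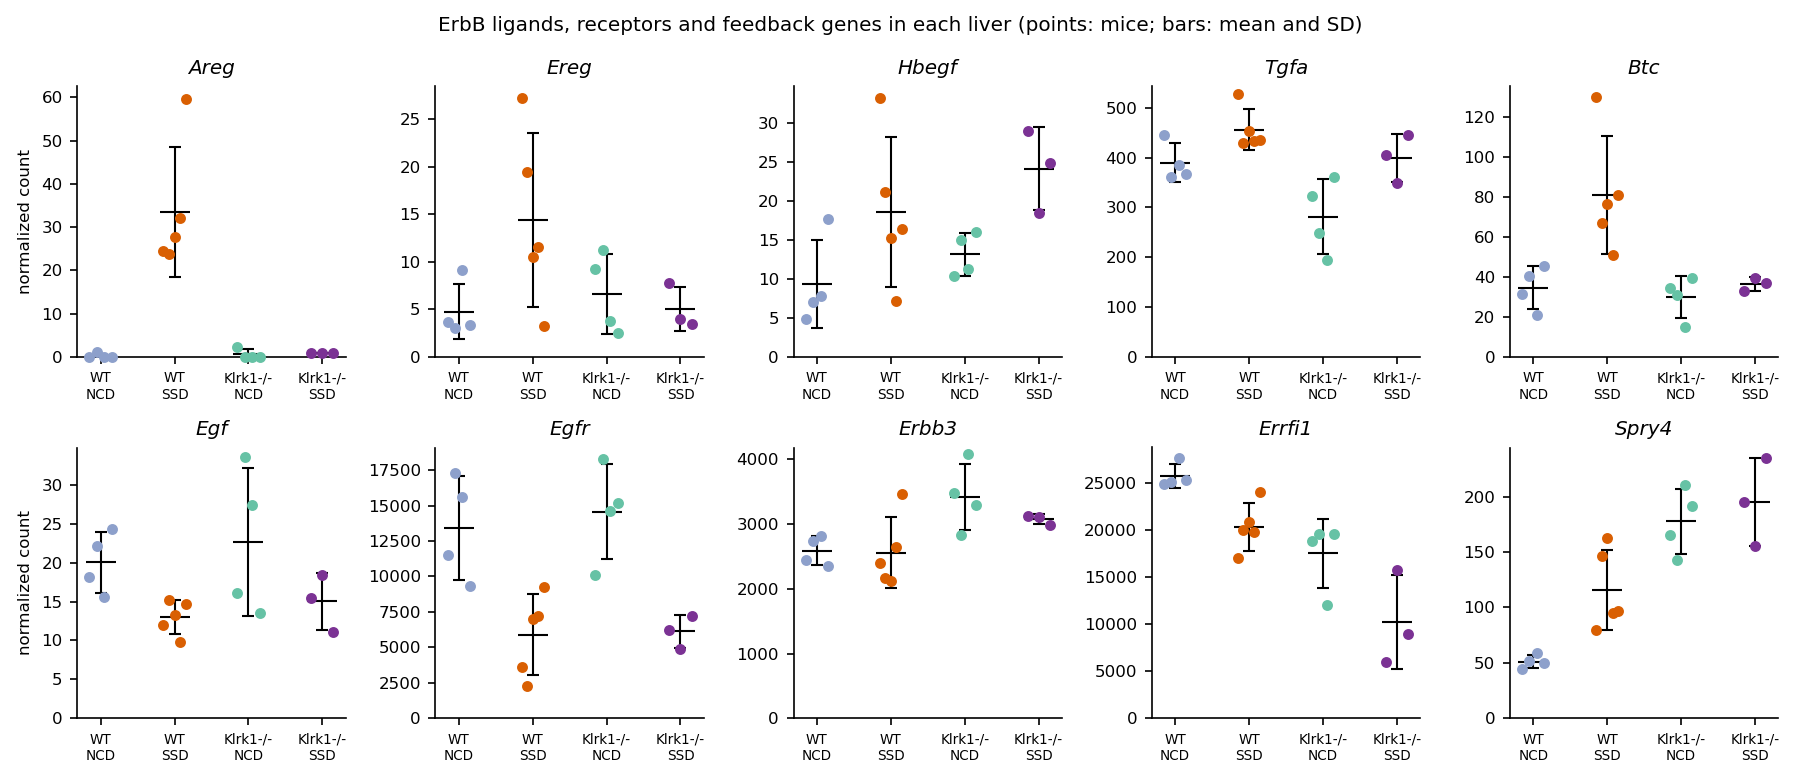
Normalized counts (vertical axes, each from 0) of the 10 genes in every liver by genotype and diet; points are mice and bars the mean and SD. Areg is between 23.7 and 59.6 in the 5 SSD-fed WT mice and at most 2.30 in the other 11, and Egfr is lower on SSD in both genotypes.

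Among the receptors, Egfr (EGF receptor; chromosome 11, 16702203 to 16868158) fell on SSD in both genotypes. WT mice measured 11500, 17291, 15634 and 9307 normalized counts on NCD and 3649, 2304, 7014, 7195 and 9291 on SSD. Klrk1-/- mice measured 10139, 18296, 14610 and 15212 on NCD and 6252, 4920 and 7223 on SSD. In WT mice the highest SSD value lay just under the lowest NCD value, and in Klrk1-/- mice the groups were well apart. The difference was -1.32 (SE 0.35, limma adjusted p = 0.0138, exact permutation p = 0.0159) in WT mice and -1.23 (SE 0.18, adjusted p = 0.000417, exact p = 0.0571) in Klrk1-/- mice. Without the SSD-fed mouse numbered 1 the WT value was -1.19 (adjusted p = 0.021). With quantile normalization the WT value was -0.96 and its adjusted p 0.0588, so that call was lost, while the call in Klrk1-/- mice was kept at -1.03 (adjusted p = 0.00202). Between genotypes on NCD, Egfr differed by 0.13 (SE 0.20, 95% interval -0.31 to 0.56, adjusted p = 0.695).

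Markers of other liver cells stood beside these receptor values. The 5 hepatocyte markers summed to between 2254370 and 2642890 normalized counts on NCD and between 1561590 and 1887130 on SSD in WT mice, without overlap. The sums were 2162310 to 2879090 and 2076740 to 2187700 in Klrk1-/- mice. Normalized totals over all genes also differed by diet, from 25001171 to 27985228 on NCD and from 19222033 to 22666465 on SSD. The marker sums are not corrected for these totals, so a shift in them cannot be told apart from the scaling. Of the 5 hepatocyte markers, 1 was called lower on SSD in WT mice, and 1 higher and 1 lower in Klrk1-/- mice. The 5 endothelial markers summed to between 1999.5 and 3368.9 on NCD and between 3151.8 and 3913.3 on SSD in WT mice, where 2 of them were called higher. In Klrk1-/- mice these sums were 2793 to 3233 on NCD and 2943 to 3860 on SSD, and 0 of the 5 were called in limma. Over all genes tested, 19.3% were called for diet in WT mice and 13.1% in Klrk1-/- mice. The part of these marker shifts in the levels of Egfr and Errfi1 was not tested.

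Erbb3, the neuregulin receptor that pairs with other ErbB receptors, was called in none of the 3 comparisons tested. Its means were 2590 ± 224 (SD, n = 4) on NCD and 2560 ± 545 (n = 5) on SSD in WT mice, and 3420 ± 514 (n = 4) and 3074 ± 76.3 (n = 3) in Klrk1-/- mice. The diet difference was -0.04 (SE 0.13, 95% interval -0.33 to 0.26, limma adjusted p = 0.851) in WT mice and -0.14 (SE 0.11, 95% interval -0.38 to 0.10, adjusted p = 0.351) in Klrk1-/- mice. Both signs turned with equal library totals, to 0.31 and 0.12. On NCD the 4 Klrk1-/- livers, 2837 to 4078, lay above the 4 WT livers, 2353 to 2814, by 0.39 (SE 0.11, adjusted p = 0.0368, exact permutation p = 0.0286). That is a 1.31-fold difference, under the fold limit.

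Of the feedback genes, Errfi1 had lower means on SSD in both genotypes and was called only in Klrk1-/- mice. Spry4 rose on SSD in WT mice. Errfi1 (ERBB receptor feedback inhibitor, also named Mig6) was the most abundant member per length. WT mice measured 24856, 25147, 27639 and 25268 normalized counts on NCD and 17006, 19972, 20857, 19804 and 23990 on SSD. Klrk1-/- mice measured 18872, 19553, 12020 and 19625 on NCD and 5961, 15756 and 8996 on SSD. The lowest and most widely spread group was thus Klrk1-/- on SSD.

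The diet difference of Errfi1 in WT mice was -0.35 (SE 0.11, limma adjusted p = 0.0314, exact permutation p = 0.0159). At a 0.786-fold level it stayed within the fold limit, and it was -0.0019 with equal library totals and 0.0085 with quantile normalization. In Klrk1-/- mice the difference was -0.86 (SE 0.27, adjusted p = 0.0319), which was called, although 1 value on SSD lay above the lowest on NCD (exact permutation p = 0.114). The call was lost with equal library totals (-0.60, adjusted p = 0.0811), under quantile normalization (-0.72, adjusted p = 0.0801), with edgeR and DESeq2, and without any 1 of the NCD-fed Klrk1-/- mice numbered 1, 2 and 4 or the SSD-fed mice numbered 1 and 3. On NCD, Klrk1-/- livers lay below WT livers without overlap, by -0.58 (SE 0.14, adjusted p = 0.0232, exact p = 0.0286), a 0.668-fold level just inside the fold limit. That difference passed the limit with equal library totals (-0.61, adjusted p = 0.0285), with the replicate block and under several single-mouse omissions.

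Spry4 (sprouty RTK signaling antagonist 4) rose with the diet in WT mice and was high in Klrk1-/- mice on either diet. Its normalized counts in WT mice were 44.6, 51.3, 58.7 and 49.7 on NCD and 79.7, 146, 163, 95.1 and 97.2 on SSD. Klrk1-/- livers held 165, 143, 210 and 192 on NCD and 195, 156 and 235 on SSD. Every NCD-fed WT liver lay below all other livers. The rise on SSD in WT mice was 1.12 (SE 0.21, limma adjusted p = 0.00203, exact permutation p = 0.0159), 2.18-fold. On NCD the Klrk1-/- livers were higher by 1.77 (SE 0.16, adjusted p = 5.28e-05, exact p = 0.0286), 3.41-fold. That call was kept under every alternative run for this comparison. Within Klrk1-/- mice the diet difference was 0.13 (SE 0.17, 95% interval -0.23 to 0.49, adjusted p = 0.589). In the GENCODE annotation 3 genes overlap Spry4 on the opposite strand, and 8 of the 10 members, all but Areg and Btc, overlap another gene. The strand setting of the counting is not given in the sources used here.

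Counts were taken over genes whose groups both reached the minimum mean, which leaves out Areg, Ereg and Hbegf for diet in WT mice. There 3 of 7 members were called for SSD against NCD (Btc and Spry4 higher, Egfr lower), beside 18.2% of 12653 genes (19.3% of all 13091 tested). For the same diets in Klrk1-/- mice, 2 of 8 were called, both lower (Egfr and Errfi1), beside 12.6% of 12628 genes (13.1% of 12904). For Klrk1-/- against WT on NCD, 1 of 7 was called (Spry4), beside 5.69% of 12622 genes (5.79% of 12845). Each count is of a few genes, and the calls stand gene by gene. Leaving out the SSD-fed WT mouse numbered 1 left Btc, Egfr and Spry4 called in WT mice, with Spry4 at 1.24 (adjusted p = 0.000483).

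**Figure D2:**
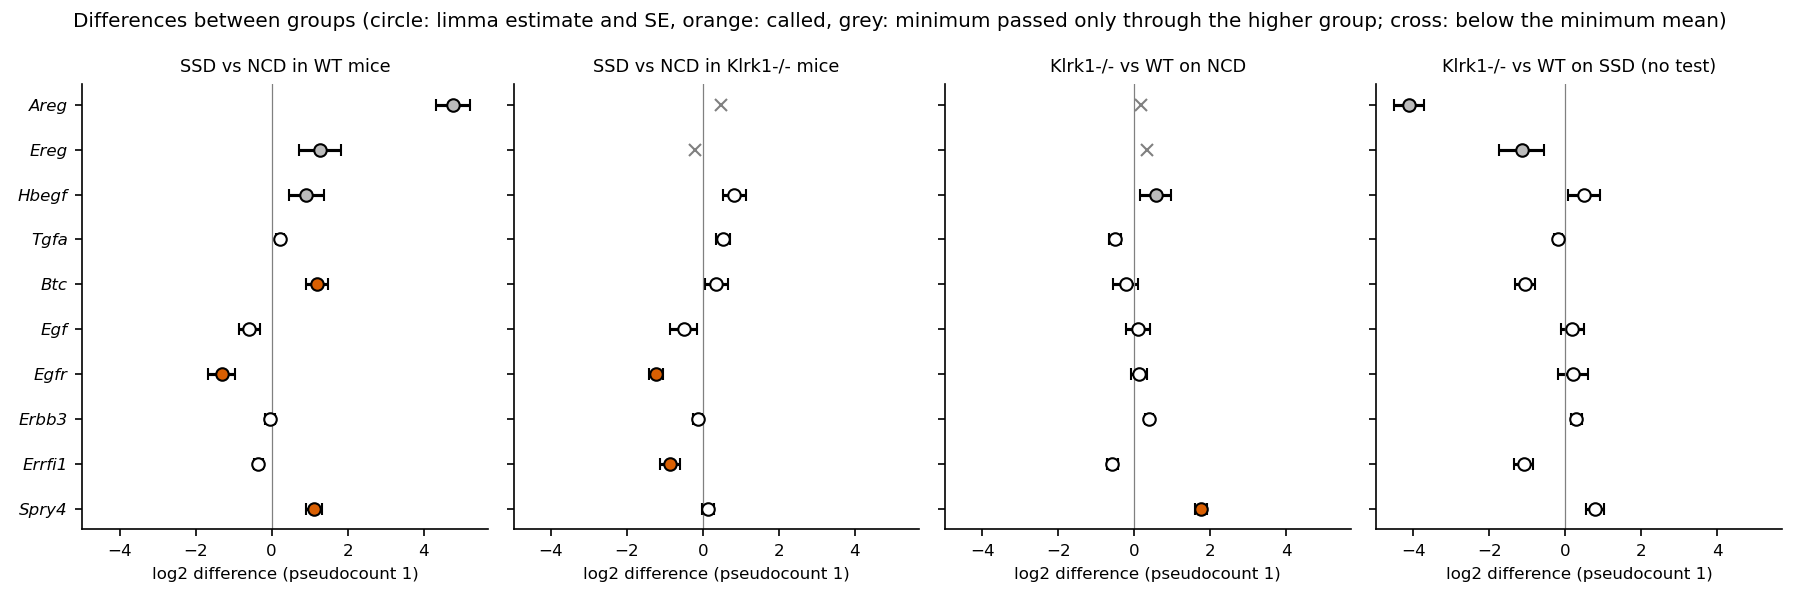
Log2 differences (horizontal axes, pseudocount 1) of the 10 genes in the 4 comparisons, with limma's SE; orange circles were called, grey circles passed the minimum mean only through the higher group, and crosses lay below it. Egfr sits at -1.32 and -1.23 for diet in the 2 genotypes, and Spry4 at 1.77 for genotype on NCD; the last panel carries no test.

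Klrk1-/- and WT mice on SSD are described without a test, since this contrast was known when the genes were chosen. Groups did not overlap for Areg, Btc and Errfi1, each lower in Klrk1-/- mice. Across the 13116 genes measured that share was 17.9%, and nothing is read from the members' number against it, since these values were in view when the genes were chosen. The estimates were -1.07 (SE 0.26) for Btc and -1.10 (SE 0.25) for Errfi1, and Areg was at least 12.8-fold lower. Ereg (-1.15, SE 0.59), Tgfa (-0.19, SE 0.11), Egf (0.18, SE 0.30), Hbegf (0.48, SE 0.42), Egfr (0.21, SE 0.39), Erbb3 (0.29, SE 0.15) and Spry4 (0.78, SE 0.24) overlapped. The diet effect in Klrk1-/- mice minus that in WT mice was -0.85 (SE 0.44) for Btc, -0.99 (SE 0.29) for Spry4, -0.51 (SE 0.31) for Errfi1 and 0.08 (SE 0.48) for Egfr.

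Cell type markers moved beside Areg and Btc. The summed macrophage and monocyte markers (Cd68, Adgre1, Clec4f, Csf1r, Ly6c2, Ccr2 and Gpnmb) ranged from 3809 to 8590 normalized counts in SSD-fed WT mice and from 3217 to 4130 in SSD-fed Klrk1-/- mice. On NCD they ranged from 3037 to 3276 in WT and from 2696 to 3301 in Klrk1-/- mice. Of these 7 genes, 5 were called higher on SSD in WT mice, 1 in Klrk1-/- mice, and 1 was called lower in Klrk1-/- than in WT mice on SSD. In the same order of comparisons, 19.3%, 13.1% and 2.13% of all genes tested were called in either direction. Stellate cell and fibroblast markers spanned 1712 to 16390 in SSD-fed WT mice and 2140 to 3195 in SSD-fed Klrk1-/- mice, and 0 of the 5 were called between genotypes on SSD in limma (1 at an unadjusted p under 0.05), edgeR (2) or DESeq2 (2). The means of these groups were 1928 and 528 for Col1a1 and 3733 and 1329 for Col3a1, both collagen genes, against 377 and 366 for Lrat and 170 and 169 for Des. In SSD-fed WT mice Col1a1 ranged from 358 to 5027 and Col3a1 from 756 to 9965, with the highest values in the mouse numbered 1. The 7 T, NK and innate lymphoid markers summed to at most 77.7 in any liver, and all 5 mast cell and basophil markers lay at the floor in the 5 SSD-fed WT mice. The mouse with the most Areg, numbered 5, held the lowest macrophage (3809), stellate (1712) and bile duct (898) sums of its group, while its level of the macrophage marker Cd68, 726, was the middle value of the group (531 to 1145). The part of these cell types in the ligand levels was not tested.

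The 5 genes whose log2 values were most like those of Areg over the 16 mice, among 13067 genes, were Tmem43 (r = 0.92), Lgals3 (galectin-3, r = 0.92), the macrophage gene Cd68 (r = 0.91), Abhd2 (r = 0.90) and the stress-response factor Atf3 (r = 0.90). The points share their libraries and fall into the SSD-fed WT mice and the rest, so these coefficients are descriptions. Lgals3 measured 982 ± 630 normalized counts (SD, n = 5) in SSD-fed WT mice and 179 ± 33.0 (n = 3) in SSD-fed Klrk1-/- mice. Atf3 measured 291 ± 174 and 37.3 ± 10.9 in the same groups. Within the family, Areg was closest to Btc (r = 0.81, n = 16).

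Compared per kilobase of gene length, the order of levels in every group began with Errfi1, Egfr, Erbb3 and Tgfa. In NCD-fed WT mice the mean normalized counts per kilobase were 11652 for Errfi1, 4546 for Egfr, 431 for Erbb3 and 198 for Tgfa, and the ranges of these neighbours did not meet. Btc (16.6), Spry4 (10.7), Egf (8.11) and Hbegf (4.90) followed. Ereg (1.16) was at the floor in 3 of these 4 mice and Areg (0.207) in all 4, so they are not ordered. Areg was at the floor in every mouse of 3 groups and is not ranked below Ereg in them. It took rank 6 in SSD-fed WT mice, at 27.6 ± 12.3 per kilobase (SD, n = 5). There it stood between Btc at 39.0 ± 14.3 and Spry4 at 24.4 ± 7.59, from which it did not differ beyond the spread between mice.

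Of the summed per-kilobase level of the 6 ligands, Tgfa held 86.4% ± 3.97 (SD, n = 4) in NCD-fed and 73.3% ± 4.01 (n = 5) in SSD-fed WT mice, and 81.0% ± 3.74 (n = 4) and 84.0% ± 1.79 (n = 3) in Klrk1-/- mice. Areg held 8.80% ± 3.83 in SSD-fed WT mice. Its recorded values came to under 1% in each of the 11 other livers, but all of these were at the floor, so no share is read there. Btc held 12.1% ± 2.83 in SSD-fed WT mice and between 4.62% and 9.59% in the others. The ratio of Egfr to Erbb3 per kilobase was 10.4 ± 2.08 on NCD and 4.60 ± 1.90 on SSD in WT mice, and 8.94 ± 3.13 and 4.07 ± 0.850 in Klrk1-/- mice. Errfi1 exceeded Egfr per kilobase in all 16 livers.

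**Figure D3:**
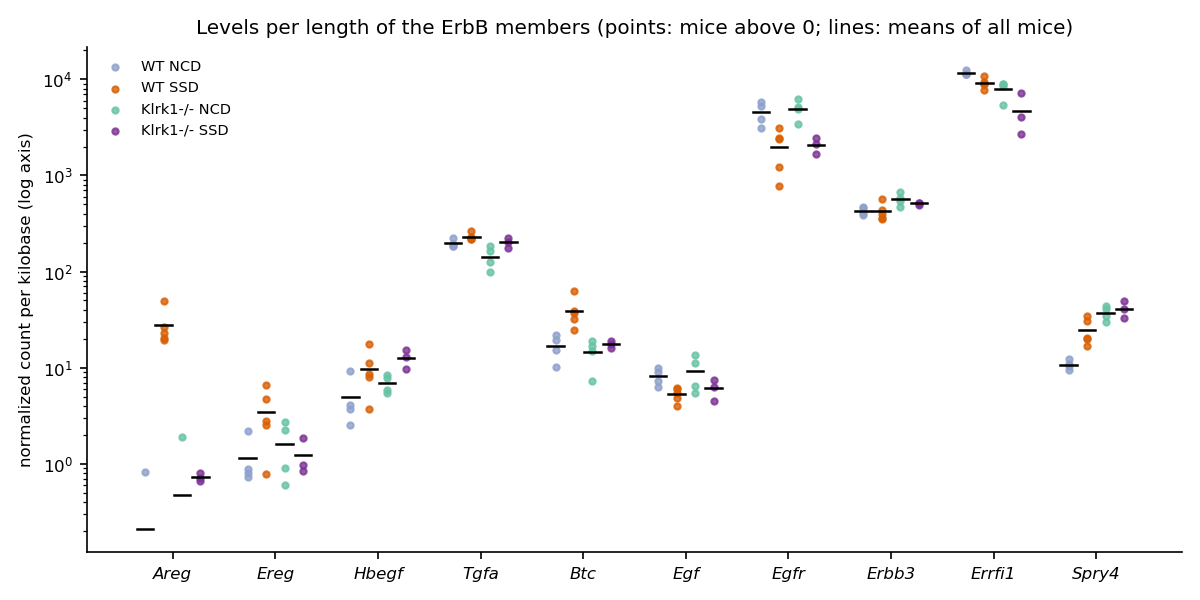
Normalized counts per kilobase of gene length (vertical log axis) of the 10 genes; points are mice with a value above 0, black lines the mean of all mice of a group. Errfi1 and Egfr lie above the other members in every group. Areg lies near 27.6 in SSD-fed WT mice and under 1 on average in the other 3 groups, where every mouse was at the floor.

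Other genes of the ErbB pathway were read from a list of 70, none of them a member. For SSD against NCD in WT mice, both groups reached the minimum mean for 60 of them, and 16 were called, 14 higher and 2 lower, or 26.7%, beside 18.2% of all such genes. The median difference of these 60 was 0.15 and that of all such genes -0.011. In Klrk1-/- mice 10 of 60 were called, 9 higher and 1 lower (16.7%, beside 12.6%). By group, 7 of 12 growth factor response genes and 4 of 8 ERK brakes were called in WT mice, against 1 of 20 adaptor and cascade genes and 1 of 11 receptor brakes. Nrg1 and Egr2 reached the minimum mean only through SSD-fed WT mice and are not in these counts. With both of them the count was 18, and 16 without the SSD-fed WT mouse numbered 1.

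The ERBB3 and ERBB4 ligand Nrg1 ranged from 8.05 to 11.03 normalized counts on NCD and from 49.7 to 300.3 on SSD in WT mice. The groups did not overlap, and without the mouse numbered 1 the highest value on SSD was 105. The immediate early gene Egr2 ranged from 0 to 6.62 normalized counts on NCD, with 3 WT mice at the floor, and from 16.1 to 71.1 on SSD, so no fold is given. Egr1, another immediate early gene, rose by 2.29 (SE 0.31, limma adjusted p = 0.000228). Dusp5 (1.89), an ERK phosphatase, Ier3 (1.88), the cyclin gene Ccnd1 (1.44), Fos (1.36), the ubiquitin ligase gene Cblb (1.17) and Dusp6 (1.14), another ERK phosphatase, were also called higher. Without the mouse numbered 1, Dusp5 stood at 1.63, Ccnd1 at 1.145 and Egr1 at 2.13, all still called. Phlda1 fell by 1.83 (SE 0.60, adjusted p = 0.0329), a call lost with equal library totals and without any 1 of the NCD-fed mice numbered 1 and 5 or the SSD-fed mice numbered 2, 3 and 4. The receptor gene Erbb4 fell in both genotypes, by 0.95 (SE 0.28, adjusted p = 0.0217) in WT and by 1.40 (SE 0.30, adjusted p = 0.00466) in Klrk1-/- mice. The call in WT mice was lost with equal library totals, with the replicate block and without the NCD-fed mouse numbered 1 or 2, and that in Klrk1-/- mice was kept under the alternatives run. Erbb2, the receptor without a known ligand, was not called by limma in the 4 comparisons, and was called for diet in Klrk1-/- mice with equal library totals and without the NCD-fed mouse numbered 2.

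The called rises in Klrk1-/- mice were in Fosl2 (1.40), Dusp4 (1.26), Ier3 (1.12), Dusp5 (0.97), Ccnd1 (0.93), Rhbdf1 (0.77), a cofactor of ligand shedding, Cblb (0.76), Jun (0.75) and Dusp6 (0.60), with adjusted p between 3.82e-05 and 0.0316. Of these, Dusp5 and Dusp6 lost their calls under several single-mouse omissions. Dusp6 also lost its call in edgeR, in DESeq2 and with the replicate block, and Dusp5 and Jun lost theirs with 1 model of all groups. Of the 61 listed genes tested in both genotypes, 9 were called in both, 7 in WT mice only and 1 in Klrk1-/- mice only. No like share over all genes stands beside these counts, and nothing is read from them. The difference of the diet effect between genotypes was tested for 63 listed genes. Of these, 0 passed in limma (9 at an unadjusted p under 0.05), 0 in edgeR (12) and 2 in DESeq2 (12). Over all 13068 genes tested, 0.849% were called in limma, 0.666% in edgeR and 2.71% in DESeq2, so nothing is read from these counts. For Egr1 the estimate was -2.02 (SE 0.56).

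**Figure D4:**
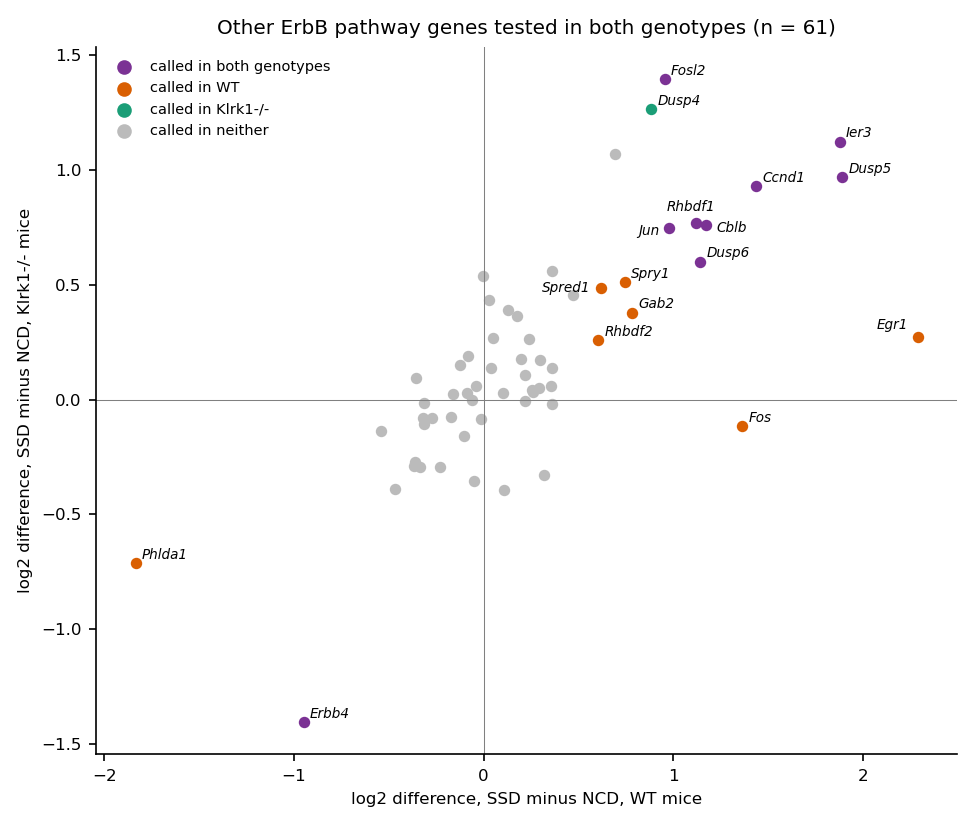
Log2 difference SSD minus NCD in WT mice (horizontal) and in Klrk1-/- mice (vertical) for the 61 listed pathway genes tested in both; each point is a gene. Erbb4 lies low on both axes at -0.95 and -1.40, and Egr1 lies at 2.29 on the WT axis and 0.27 on the Klrk1-/- axis.

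On SSD, 4 of the 62 listed genes with both groups at the minimum mean were called between genotypes (6.45%, beside 1.82% of all such genes and 2.13% of all genes tested), each lower in Klrk1-/- mice. The list was drawn up with earlier results of these livers known, this contrast included, so these shares are a description and the tests of its genes are no independent support. Nrg1 measured 300, 61.7, 71.4, 49.7 and 105 normalized counts in SSD-fed WT mice and 14.5, 8.83 and 15.4 in SSD-fed Klrk1-/- mice (fell by 2.79, SE 0.50, limma adjusted p = 0.0221). Without the WT mouse numbered 1 the difference was -2.37 (adjusted p = 0.00172), and the call was lost without any 1 of the 3 SSD-fed Klrk1-/- mice. Fos fell by 1.62 (SE 0.28, adjusted p = 0.0197), Jun by 1.02 (SE 0.23, adjusted p = 0.0474) and Dusp1 by 0.69 (SE 0.15, adjusted p = 0.043). The count was 0 without the SSD-fed Klrk1-/- mouse numbered 1 or 3 (12 and 16 genes at an unadjusted p under 0.05), 1 without the one numbered 2 or the WT mouse numbered 3, 2 without the WT mouse numbered 2 or 4, and 6 without the WT mouse numbered 1. With either Klrk1-/- mouse left out, edgeR also called 0 and DESeq2 called 4.

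On NCD, 6 of 60 listed genes were called between genotypes, beside 5.69% of all genes with both groups at the minimum mean. Egr1 (1.62, SE 0.37, limma adjusted p = 0.016) and Ier2 (0.75, SE 0.15, adjusted p = 0.00829) were higher in Klrk1-/- mice. Myc (-1.80, SE 0.51, adjusted p = 0.0375), Ccnd1 (-0.67, SE 0.12, adjusted p = 0.00413), the sheddase gene Adam9 (-0.64, SE 0.12, adjusted p = 0.00775) and the PI3K subunit gene Pik3r1 (-0.60, SE 0.09, adjusted p = 0.00248) were lower. Without the NCD-fed Klrk1-/- mouse numbered 3 the count was 3, and of the 6 genes only Ier2 was called with each of the 8 mice left out in turn.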

How the data were processed

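Whole-liver RNA was sequenced from single reads of 100 bases. Per the labels and the methods of the study, the authors ran FastQC, mapped the reads with STAR on GRCm39, counted with featureCounts on GENCODE and used DESeq2 for fold changes. The labels name an mRNA kit and the methods a total RNA kit. Each value of the deposited signal is a read count scaled by 1 factor for its sample (a normalized count), and how the authors computed the factors is not given in the sources used here. The deposited table also gives gene length and the fraction of G and C bases, both supplied by the authors.

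The members and lists were chosen with earlier results of these data known. The trend method of limma 3.58.1 (R 4.3.3) compared log2 values with a pseudocount of 1, separately for each pair of groups. It took genes whose mean normalized count was at least 10, with Benjamini-Hochberg adjustment across every gene tested. Calls needed an adjusted p below 0.05 together with a fold change over 1.5, as in the methods of the study. The pseudocount shrinks the fold changes of genes with few reads. Single members were tested by exact two-sided permutation of mice. A library with 3 reads or fewer was at the floor, and bounds use 3 reads per library. Each mouse was 1 library, and the values were whole multiples of 1 step per sample (100%, within 0.001), so edgeR 4.0.16 and DESeq2 1.42.0 could be run on recovered reads as alternatives. The other alternatives were pseudocounts of 0.5 and 10, minimum means of 0 and 50, other scalings, 1 model of all groups, other fold limits, a replicate block and leaving out each mouse. Counting error and the number of mice limit the precision of genes with few reads. Nrg1 names 2 identifiers, and the one with the higher mean was used. The genes named are the members, Klrk1, up to 10 called genes of the pathway list per comparison with the largest difference, Erbb2, Erbb4 and the 5 patterns nearest to Areg. The statistics were tested on simulated data.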

Additional observations from a re-analysis of the deposited data

Results flagged for a closer look

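In 5 of 28 groups of 4 or 5 mice, 1 liver stood apart from the others of its group. The measure is the gap to the nearest mouse as a share of the range of the group. Its limit is passed by about 1 group in 20 if values are independent and normally distributed. These groups share mice and some hold few reads, so no excess over chance is read. Areg in the SSD-fed WT mouse numbered 5 was 59.6 normalized counts, with 32.0 next (share 0.768). Ereg in the NCD-fed WT mouse numbered 3 was 9.12, with 3.62 next (0.902), and Errfi1 in the same mouse was 27640, with 25270 next (0.852). Tgfa in the SSD-fed WT mouse numbered 1 was 527, with 454 next (0.748). Errfi1 in the NCD-fed Klrk1-/- mouse numbered 3 was 12020, with 18870 next (0.901), and this was the lowest value of its group.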

How the results depend on the processing

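With equal library totals the median log2 difference of all genes by diet became 0.344 in WT and 0.254 in Klrk1-/- mice, and that by genotype -0.0245 on NCD and -0.115 on SSD. Calls for diet then split into 3491 higher and 406 lower in WT mice, against 1564 and 958, and into 2124 and 479 in Klrk1-/- mice, against 844 and 852. On SSD the genotype calls were 52 higher and 274 lower, against 93 and 186. The cause was not tested. Under that scaling Erbb3 turned to 0.309 for diet in WT and 0.116 in Klrk1-/- mice. Quantile normalization gave 0.126 for Erbb3 and 0.00851 for Errfi1 in WT mice.

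Percentages in this paragraph are the shares of all genes tested that were called under the same setting. For diet in WT mice (19.3%) the members called numbered 3 to 6, which include Areg except at a minimum mean of 50 and under some settings Ereg or Hbegf. The 3 were at a minimum mean of 50 (17.5%) and the 6 with equal totals (29.7%). The pathway count of 18 became 11 at a fold limit of 2 (9.01%) and 15 to 20 with 1 mouse left out (15.8% to 20.6%). For diet in Klrk1-/- mice (13.1%) the 2 members became 1 with quantile normalization (12.9%), DESeq2 (13%) or a fold limit of 2 (5.46%). They became 1 to 3 with 1 mouse left out (11% to 14.2%). The 10 pathway genes became 20 with equal totals (20.2%), 19 without a fold limit (29.4%) and 4 at a fold limit of 2. For genotype on NCD (5.79%) the 1 member became 2 with equal totals (5.43%), 3 without a fold limit (13.1%) and 1 to 3 with 1 mouse left out (3.31% to 7.58%). The 6 pathway genes became 2 at a fold limit of 2 (1.7%) and 3 to 6 with 1 mouse left out. On SSD (2.13%) the 4 pathway genes became 2 with quantile normalization (1.61%) and 0 to 6 with 1 mouse left out (0.342% to 3.42%). Signs turned within small differences when 1 mouse was left out: Erbb3 for diet in WT mice (-0.151 to 0.0257), Spry4 for diet in Klrk1-/- mice (-0.0119 to 0.283), and on NCD Egfr (-0.0346 to 0.291), Egf (-0.116 to 0.302) and Btc (-0.435 to 0.0716).

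The same replicate number marks different mice. Same-numbered deviations correlated between -0.146 and 0.237, not above 0.1 in every pair of any comparison, so the numbers were not used as pairs. Differently numbered mice were not set beside them, so this check cannot show that a pairing is absent. With the replicate block, 4 members were called for diet in WT mice (beside 15% of all genes tested), Areg among them as without the block. The block gave 3 for diet in Klrk1-/- mice (beside 13%) and 3 for genotype on NCD (beside 8.8%), where Egfr turned to -0.0660. Of 454 values under alternatives in the tested comparisons, 440 kept the sign of the main value, 22 gained a call and 10 lost one. Of 388 values in the contrasts given without a test, 25 took the other sign, in Egfr, Egf, Hbegf and Erbb3. Areg, Ereg, Hbegf and Egf held at most 73 reads in any library, which limits their precision.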
